A study of Mus musculus with 6 samples.

Results

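Imprinted genes are described here in cultured mouse keratinocytes with and without epidermal Dnmt1. The set holds 42 genes, taken by name from the gene count table, which lists 43629 genes. Of these 42, 23 are expressed from the paternal copy, 18 from the maternal copy and 1 (Gnas) from either copy by isoform, and they lie in 18 clusters on 9 chromosomes, with 21 of them on chromosome 7. The parental copy, the cluster, whether imprinting is broad or restricted to some tissues and whether the promoter lies at a germline control region were assigned from general knowledge of each gene and not measured in these libraries.

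An imprinted gene is transcribed from 1 parental copy, because DNA methylation laid down in the egg or the sperm marks a control region near it. That mark, a germline differentially methylated region, is copied at each cell division by DNMT1, the maintenance methyltransferase. At some clusters the mark silences a promoter directly. At others it acts through a long noncoding RNA or through binding of the insulator protein CTCF, so that neighbouring genes are read from opposite parental copies.

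Epidermis was taken at P3 from mice of mixed C57BL/6J and 129SV background, and keratinocytes were cultured before poly(A) RNA was sequenced, for 5 days by the labels, while another part of the study's text gives a shorter time. The Dnmt1Δ/Δep group carried floxed Dnmt1 alleles deleted by Cre under the keratin 5 promoter, which acts in keratinocytes. The control group had floxed Dnmt1 without Cre. All 6 mice were labelled female, and each group held 3 libraries, 1 per mouse. The RNA came from a whole culture, so for every gene below fewer cells that express it and less RNA per cell cannot be told apart, and no read was assigned to a parental copy.

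Between 53433121 and 115526598 reads per library fell on genes, and 3 reads in a library equalled 0.0254 to 0.0558 CPM (reads scaled to the library total, with TMM library factors). The targeted gene followed the labels. Dnmt1 stood at 394, 379 and 324 CPM in control replicates 1, 2 and 3 and at 49.7, 54.3 and 50.7 CPM in Dnmt1Δ/Δep replicates 1, 2 and 3, a log2 fold change of -2.83. Keratinocyte markers summed to 36822 to 40653 CPM in control and to 27421 to 28356 CPM in Dnmt1Δ/Δep libraries. Markers of other cells were present at lower levels. Fibroblast markers (12 genes, none at 0 throughout) summed to 92.5 to 167 CPM in control and 133 to 391 CPM in Dnmt1Δ/Δep, and melanocyte markers (7 genes) to 224 to 573 and 688 to 912 CPM. Endothelial markers summed to 5.36 to 17.4 and 15.1 to 23.3 CPM, and leukocyte markers to 0.772 to 1.09 and 5.44 to 8.84 CPM. Of the 9 leukocyte markers 3 were tested and 2 called up, Coro1a (mean 0.495 CPM in control, 4.79 CPM in Dnmt1Δ/Δep) and Csf1r (0.238 and 1.54 CPM), the latter not with the replicate block, while Ptprc, the pan-leukocyte marker, had at most 0.201 CPM. Of the 5 endothelial markers 2 were called up, Pecam1 (1.92 and 7.16 CPM) and Cdh5 (0.255 and 4.62 CPM). Of all tested genes 6.03% were called up. Markers of muscle and nerve summed to 31.1 to 62.6 and 44.3 to 55.5 CPM, with Myod1, which defines muscle cells, at 0 in all 6 libraries. Xist stood at 93.0 CPM in Dnmt1Δ/Δep replicate 2 and between 727 and 1276 CPM in the other libraries. The part of these values in the results below was not tested.

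Promoter sequences were read to show which of the genes carry CpG-rich starts, since CpG is the site that DNMT1 methylates. RefSeq promoters on GRCm38.p6, from 250 bases before to 50 after a gene's start, were at hand for 33 of the 42 genes, some with several starts, 47 promoters in all. H19, Peg10, Sgce, Cdkn1c, Kcnq1, Nap1l4, Nespas, Impact and Dcn had no entry used here. The 47 promoters held a median of 14 CpG dinucleotides, and all promoters in the table a median of 7. The motif TGCCGC, searched on both strands and known as the core of the site bound by the imprint-protecting zinc finger protein ZFP57, was in 10 of the 47 and in 11.6% of all promoters of the same length. A match is a description of the letters and not of binding. Shown are the promoters of Peg3, Ndn and H13, which passed the adjusted p below, and that of Mcts2, which lies within the span of H13 and is read from the other parental copy. CpG dinucleotides are in capitals.
Peg3: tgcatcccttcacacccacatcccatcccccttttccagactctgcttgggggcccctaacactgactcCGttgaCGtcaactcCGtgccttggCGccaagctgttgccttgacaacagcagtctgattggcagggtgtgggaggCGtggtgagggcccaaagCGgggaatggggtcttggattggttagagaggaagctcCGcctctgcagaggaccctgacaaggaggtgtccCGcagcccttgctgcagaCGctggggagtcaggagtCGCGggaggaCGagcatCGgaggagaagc
Ndn: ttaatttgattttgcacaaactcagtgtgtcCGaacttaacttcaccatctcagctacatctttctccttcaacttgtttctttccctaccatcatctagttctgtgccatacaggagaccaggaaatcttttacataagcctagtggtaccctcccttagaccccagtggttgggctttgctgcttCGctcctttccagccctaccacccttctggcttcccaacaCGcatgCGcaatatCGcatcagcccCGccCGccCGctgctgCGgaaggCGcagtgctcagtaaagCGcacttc
H13: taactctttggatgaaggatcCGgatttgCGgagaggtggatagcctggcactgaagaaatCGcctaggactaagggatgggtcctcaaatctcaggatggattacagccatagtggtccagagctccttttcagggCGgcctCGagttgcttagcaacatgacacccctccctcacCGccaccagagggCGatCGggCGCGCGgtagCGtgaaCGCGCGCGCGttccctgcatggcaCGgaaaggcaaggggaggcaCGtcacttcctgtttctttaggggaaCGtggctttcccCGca
Mcts2: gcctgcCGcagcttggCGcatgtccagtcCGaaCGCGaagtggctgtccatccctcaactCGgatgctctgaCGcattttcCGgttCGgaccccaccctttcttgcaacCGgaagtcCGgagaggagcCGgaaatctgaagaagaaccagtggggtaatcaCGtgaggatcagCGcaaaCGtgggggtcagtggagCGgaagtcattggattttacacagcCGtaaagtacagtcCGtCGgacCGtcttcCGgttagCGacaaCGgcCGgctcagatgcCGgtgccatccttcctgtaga

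The Peg3 promoter (minus strand, chr7:6730370-6730669) held 13 CpG dinucleotides and no TGCCGC. It shared bases with the promoter of Usp29, the gene read in the opposite direction from the same control region (plus strand, chr7:6730333-6730632). The Ndn promoter (plus strand, chr7:62348027-62348326) held 11 CpG dinucleotides. The promoters of H13 (plus strand, chr2:152669211-152669510) and Mcts2 (plus strand, chr2:152686898-152687197) held 21 and 25, and of these 4 promoters the Mcts2 one alone contained TGCCGC.

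The imprinted genes ranged from abundant to undetected in control keratinocytes. Levels between genes were compared as RPKM, CPM per kilobase of exon, and 21 of the 42 genes had a control mean of 1 RPKM or more, while 10 were under 0.1 RPKM. Cd81, a tetraspanin of the cell surface whose imprinting is restricted to some tissues, had the highest mean at 130 ± 4.79 RPKM (SD, n = 3). Gnas, which encodes the stimulatory G protein alpha subunit, followed at 61.0 ± 10.2 RPKM, Nap1l4, a histone chaperone, at 59.3 ± 11.3 RPKM and Peg3, a zinc finger protein, at 52.8 ± 0.361 RPKM. The means of Gnas, Nap1l4 and Peg3 differed by less than the SD of Nap1l4. Plagl1, a zinc finger transcription factor, had 33.5 ± 11.1 RPKM, Igf2r, the receptor that clears insulin-like growth factor 2, 26.9 ± 5.90 RPKM and H19, a growth-restraining noncoding RNA, 23.2 ± 10.3 RPKM, means that differed by less than the SD of Plagl1.

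Several well-studied imprinted genes had lower levels. Igf2, the fetal growth factor, had 4.96 ± 0.608 RPKM, Cdkn1c, an inhibitor of the cell cycle, 3.92 ± 0.930 RPKM and Ndn, a member of the MAGE family known in neurons, 2.66 ± 0.288 RPKM. The Dlk1-Meg3 cluster had low levels in these cells. Meg3 and Rian, its maternally expressed noncoding RNAs, had 0.0245 and 0.0196 RPKM, and Dlk1, a Notch-related membrane protein, had 0.0189 RPKM. Magel2 had no read in any library, which allows up to 0.0254 to 0.0558 CPM by library, counting error only.

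**Figure D1:**
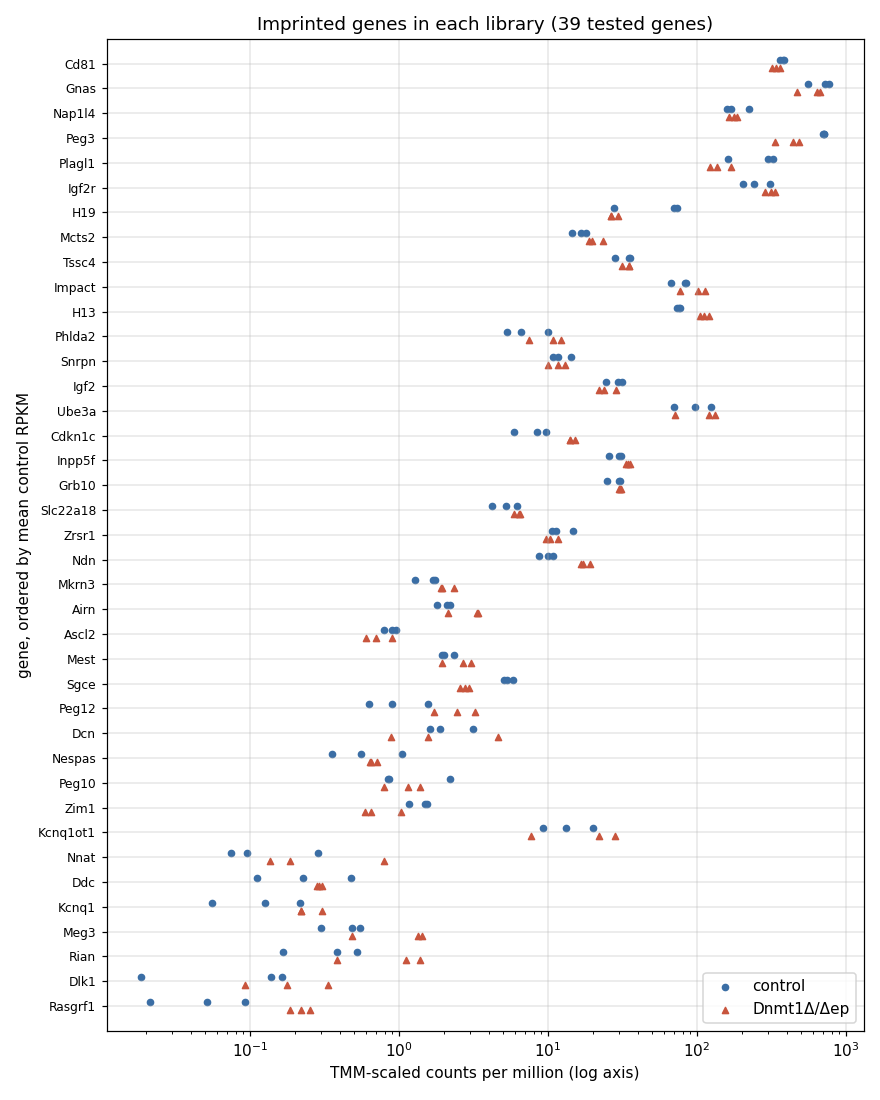
Level of each of the 39 tested imprinted genes in each library, as TMM-scaled CPM on a log axis, with genes ordered by mean control RPKM (highest at the top). Circles are the 3 control and triangles the 3 Dnmt1Δ/Δep libraries, and for most genes the groups overlap.

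Whether the loss of Dnmt1 moved imprinted genes was asked with edgeR's quasi-likelihood test over all 16829 genes with enough counts, with Benjamini-Hochberg adjustment of p-values across them. A call needed an adjusted p no larger than 0.05 together with a log2 fold change no smaller than 1 either way. No imprinted gene was called in either direction among the 39 that were tested, beside 6.03% of all tested genes called up and 0.392% called down. Under the unadjusted p of 0.05, 9 of the 39 were higher and 5 lower in Dnmt1Δ/Δep cells (15.8% and 7.79% of all tested genes). DESeq2 called 1 imprinted gene up (Peg12) and 2 down (H19 and Sgce), where it called 7.63% and 0.69% of its tested genes. With the replicate number as a block, edgeR again called none, beside 6.97% of all tested genes up and 0.565% down. Usp29, Magel2 and Mirg, which had at most 6 counts in any library, were not tested.

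On the adjusted p alone, 3 of the 39 genes were higher (Ndn, H13 and Cdkn1c) and 2 lower (Peg3 and Sgce), beside 7.71% and 1.66% of all tested genes. Expression did not overlap between the groups for 9 genes that were higher and 3 that were lower, beside 18.2% and 11.7% of all tested genes. Among the 9 was Rasgrf1, which had enough counts for the test only through its Dnmt1Δ/Δep libraries. The share of imprinted genes higher on the adjusted p was near that of all genes. The median log2 fold change of the 39 genes was 0.26, with 26 positive and 13 negative values, beside -0.00 for all tested genes. It was 0.11 without Dnmt1Δ/Δep replicate 1.

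Each of the 5 genes on the adjusted p alone is given by library. On GRCm38 they lie at chr7:6703892-6730431 (Peg3), chr6:4674350-4747207 (Sgce), chr7:62346569-62350262 (Ndn), chr7:143458339-143461050 (Cdkn1c) and chr2:152669461-152708670 (H13), each a protein-coding gene counted over its exons. Peg3, the paternally expressed zinc finger gene, had 707, 706 and 698 CPM in control replicates 1, 2 and 3 and 484, 335 and 438 CPM in Dnmt1Δ/Δep replicates 1, 2 and 3. All 3 control libraries lay above all 3 Dnmt1Δ/Δep libraries. The log2 fold change was -0.75 ± 0.14 (SE) with an adjusted p of 0.020 by edgeR with Benjamini-Hochberg adjustment.

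Sgce, which encodes epsilon-sarcoglycan, a membrane protein whose paternal copy is the expressed one, had 5.80, 5.07 and 5.32 CPM in control and 2.55, 2.94 and 2.75 CPM in Dnmt1Δ/Δep replicates 1, 2 and 3. The groups did not overlap, and every Dnmt1Δ/Δep library was close to the others. The log2 fold change was -0.97 ± 0.17 (SE) and the adjusted p 0.013 by edgeR with Benjamini-Hochberg adjustment, so the gene missed the call only by its fold change. It was called by edgeR with DESeq2 size factors, without the filter on low counts, and without Dnmt1Δ/Δep replicate 2. Peg10, which shares the Sgce control region and derives from a retrotransposon, had 2.19, 0.852 and 0.838 CPM in control and 1.39, 0.798 and 1.15 CPM in Dnmt1Δ/Δep libraries, overlapping throughout.

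Ndn had 10.7, 10.1 and 8.66 CPM in control and 17.2, 16.6 and 19.2 CPM in Dnmt1Δ/Δep replicates 1, 2 and 3, so the groups were apart. Its log2 fold change was 0.85 ± 0.14 (SE), adjusted p 0.011 by edgeR with Benjamini-Hochberg adjustment. Cdkn1c, the maternally expressed cell cycle inhibitor, had 9.61, 8.44 and 5.90 CPM in control and 14.0, 15.3 and 13.9 CPM in Dnmt1Δ/Δep libraries, with a log2 fold change of 0.85 ± 0.19 (SE) and an adjusted p of 0.038 by the same edgeR test. H13, a signal peptide peptidase, had 77.1, 73.6 and 75.3 CPM in control and 112, 119 and 105 CPM in Dnmt1Δ/Δep libraries, a log2 fold change of 0.57 ± 0.090 (SE) with an adjusted p of 0.0096 by edgeR. In all 3 the lowest Dnmt1Δ/Δep library was above the highest control library.

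Whether these 5 genes passed the adjusted p depended on single libraries. With control replicate 2 left out, none of the 39 genes had an adjusted p of 0.05 or less in edgeR, and with control replicate 1 left out 9 did. Over the 6 fits that each left out 1 library, the adjusted p of edgeR lay between 0.027 and 0.078 for Peg3, between 0.017 and 0.063 for Sgce, between 0.0085 and 0.054 for Ndn, between 0.017 and 0.14 for Cdkn1c and between 0.012 and 0.062 for H13.

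**Figure D2:**
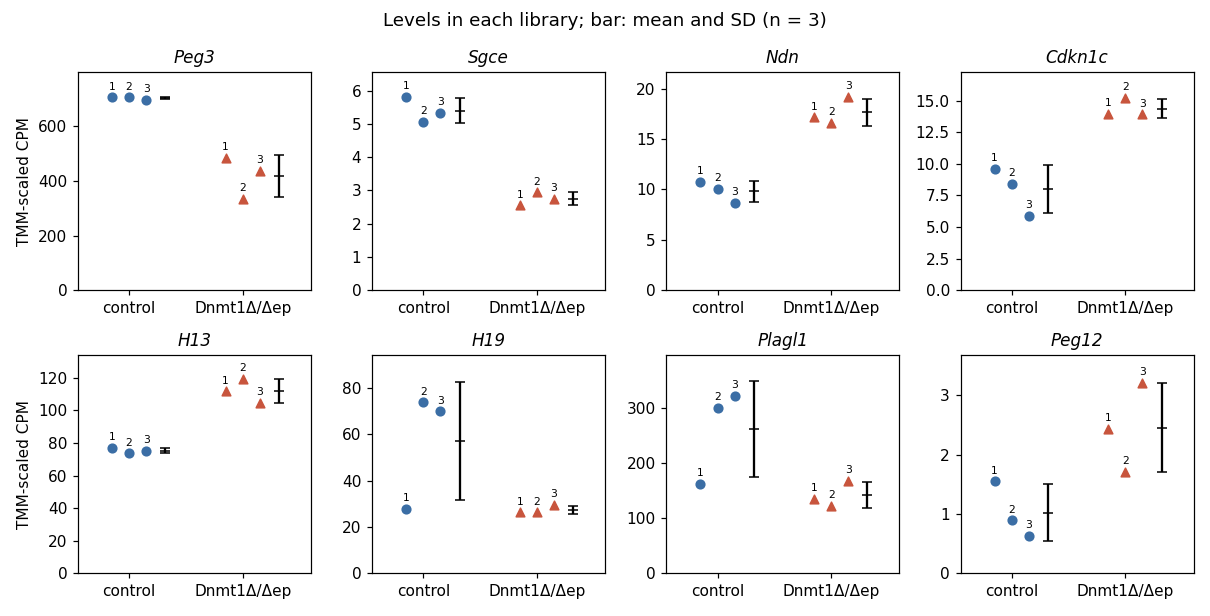
Level of 8 imprinted genes in each library as TMM-scaled CPM, each axis starting at 0. Circles are control and triangles Dnmt1Δ/Δep libraries, the small digits are replicate numbers, and the bar to the right of each group is its mean with SD (n = 3). Control replicate 1 of H19 and Plagl1 lies with the Dnmt1Δ/Δep libraries.

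H19 and Plagl1 had lower means in Dnmt1Δ/Δep cells, and neither was called by edgeR unless control replicate 1 was left out or, for H19, low counts were kept. H19 stood at 27.8, 73.7 and 69.8 CPM in control and at 26.3, 26.2 and 29.4 CPM in Dnmt1Δ/Δep replicates 1, 2 and 3. Control replicate 1 lay inside the Dnmt1Δ/Δep range. The log2 fold change was -1.06 ± 0.33 (SE), adjusted p 0.096 by edgeR with Benjamini-Hochberg adjustment, and -1.40 with an adjusted p of 0.00071 without control replicate 1. H19 was also called with all libraries by DESeq2 (-1.10, adjusted p 0.0092) and by edgeR without the filter (-1.11, adjusted p 0.016). Plagl1 stood at 162, 301 and 322 CPM in control and at 136, 122.5 and 168 CPM in Dnmt1Δ/Δep libraries. Its log2 fold change was -0.88 ± 0.26 (SE), adjusted p 0.080 by the same test, and -1.13 without control replicate 1, where it was called.

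Krt1, a keratin of differentiating epidermis, was also high in control replicates 2 and 3 and low in the other libraries. It stood at 53.2, 356 and 530 CPM in control and at 66.1, 59.2 and 65.5 CPM in Dnmt1Δ/Δep replicates 1, 2 and 3. Krt10, its partner keratin, stood at 9.63, 32.1 and 29.7 CPM and at 10.6, 7.10 and 6.30 CPM. Control replicate 1 was thus low for both keratins, for H19 and for Plagl1, and the part of differentiation in the H19 and Plagl1 values was not tested. Igf2, read from the paternal copy beside H19, had 24.5, 31.3 and 29.3 CPM in control and 28.8, 23.6 and 22.1 CPM in Dnmt1Δ/Δep libraries, with overlapping groups and a log2 fold change of -0.19 (95% interval -0.54 to 0.15).

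In the Snrpn-Ube3a cluster, which is deleted in Prader-Willi and Angelman syndromes, Ndn was not alone in its direction. Peg12, a single-exon paternally expressed gene, had 1.55, 0.893 and 0.633 CPM in control and 2.43, 1.71 and 3.21 CPM in Dnmt1Δ/Δep libraries, which did not overlap. Its log2 fold change was 1.25 ± 0.39 (SE), adjusted p 0.098 by edgeR with Benjamini-Hochberg adjustment. Without control replicate 1 it was called, at 1.67. Mkrn3, a zinc finger ubiquitin ligase gene, had 1.73, 1.28 and 1.69 CPM in control and 1.93, 1.91 and 2.33 CPM in Dnmt1Δ/Δep libraries, again without overlap, with an adjusted p of 0.36 by the same edgeR test. Snrpn, the splicing protein gene whose promoter is the control region of this cluster, had a log2 fold change of -0.09 (95% interval -0.47 to 0.30). Its exons share 27.3% of their bases with other genes. Ube3a, a ubiquitin ligase read from the maternal copy only in neurons, had 0.15 (-0.49 to 0.79).

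In the Kcnq1 cluster, the largest here, Cdkn1c was the 1 gene past the adjusted p. Kcnq1ot1, the paternally expressed noncoding RNA that silences the cluster, had 13.2, 9.20 and 19.9 CPM in control and 22.0, 7.70 and 28.0 CPM in Dnmt1Δ/Δep replicates 1, 2 and 3. The groups overlapped widely, and replicate 2 was the lowest library of both. Its log2 fold change was 0.45 (95% interval -0.65 to 1.55), and it was 0.07 without Dnmt1Δ/Δep replicate 3 and 0.78 without replicate 2. The share of reads outside the counted exons was also lowest in replicate 2 of each group. It was 8.98%, 7.70% and 8.42% in control and 11.97%, 8.43% and 11.6% in Dnmt1Δ/Δep libraries. Its part in the Kcnq1ot1 value was not tested.

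No other gene of that cluster passed the adjusted p. Phlda2, a growth-restraining gene of placenta, had a log2 fold change of 0.48 (95% interval -0.18 to 1.14), and Slc22a18, a transporter, had 0.27 (-0.17 to 0.70). Cd81 had -0.14 (-0.36 to 0.08), Nap1l4 -0.06 (-0.40 to 0.28) and Tssc4 0.03 (-0.27 to 0.32), with the sign of Tssc4 turning under other normalizations. Ascl2, a transcription factor of trophoblast and stem cells, had -0.26 (-0.89 to 0.38), and Kcnq1, the potassium channel gene, had 0.85 (-0.33 to 2.03) at a control mean of 0.133 CPM, with no overlap between the groups.

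**Figure D3:**
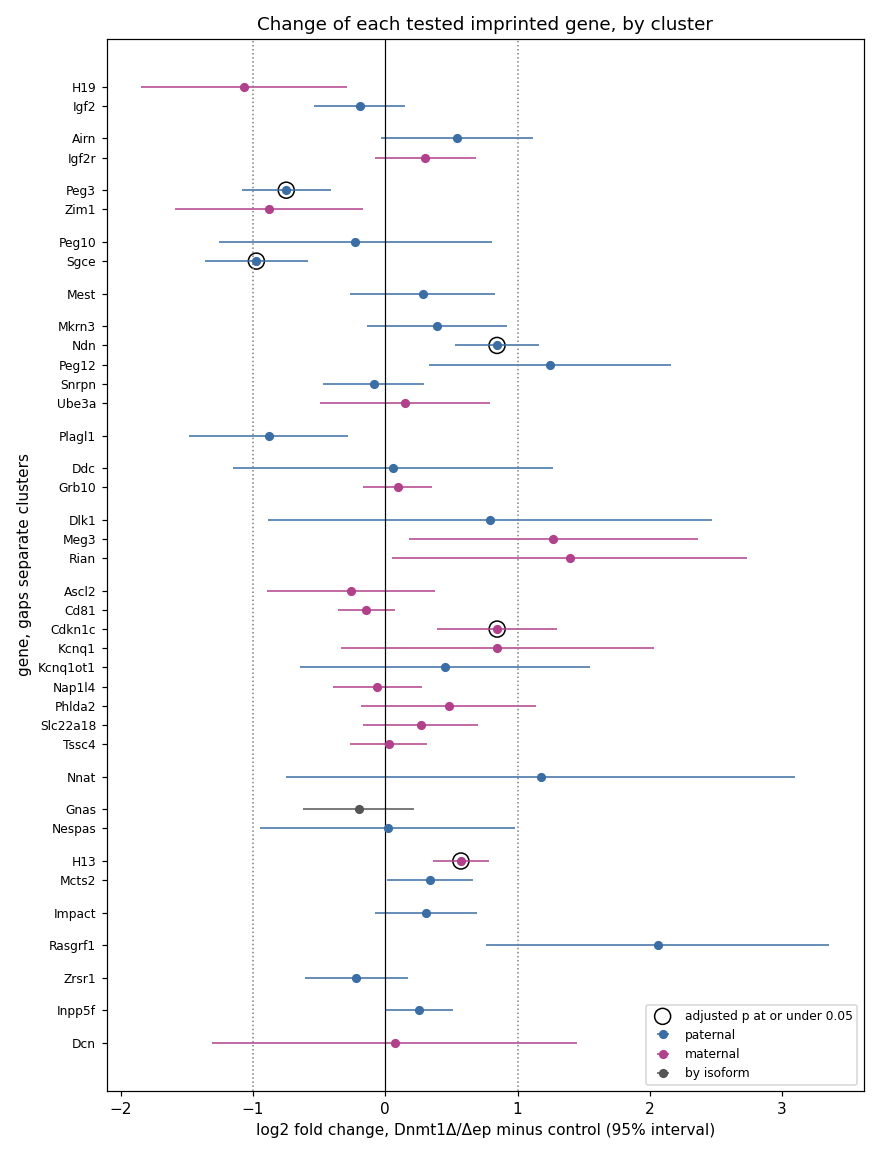
Log2 fold change of each tested imprinted gene, Dnmt1Δ/Δep minus control, with its 95% interval, grouped by cluster and coloured by the expressed parental copy. Open circles mark the 5 genes with an adjusted p of 0.05 or less, and dotted lines stand at a log2 fold change of 1 in each direction. Intervals of 19 of the 39 genes lie between the dotted lines.

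Of the maternally expressed noncoding RNAs of the Dlk1-Meg3 cluster, Meg3 and Rian were high in 2 of the 3 Dnmt1Δ/Δep libraries, and Mirg had at most 5 counts in any library. Meg3 had 0.550, 0.482 and 0.298 CPM in control and 1.34, 0.486 and 1.42 CPM in Dnmt1Δ/Δep replicates 1, 2 and 3. Rian, a host of small nucleolar RNAs, had 0.381, 0.523 and 0.168 CPM and 1.11, 0.382 and 1.39 CPM in the same order. Replicates 1 and 3 were above every control library, and replicate 2 lay within the control range. The adjusted p was 0.15 for Meg3 and 0.20 for Rian by edgeR with Benjamini-Hochberg adjustment.

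The summed fibroblast markers were highest in the same 2 libraries, with 345 and 391 CPM in Dnmt1Δ/Δep replicates 1 and 3, 133 CPM in replicate 2, and 109, 167 and 92.5 CPM in control replicates 1, 2 and 3. Vim had the highest value of the 12 in every library, with 64.2, 87.9 and 51.7 CPM in control. In Dnmt1Δ/Δep replicates 1, 2 and 3 it had 197, 85.7 and 197 CPM. In Dnmt1Δ/Δep replicate 3, Lum (0.407 CPM) and Postn (2.34 CPM) lay within the control range, and the other markers lay above it. Of the 12 markers 1 was called up (Fbn1), beside 6.03% of all tested genes, and with the replicate block its adjusted p by edgeR was 0.060. The part of fibroblasts in the Meg3 and Rian values was not tested. Dlk1, read from the paternal copy, had at most 0.336 CPM in any library and a log2 fold change of 0.79 (95% interval -0.89 to 2.47). Dcn, an extracellular matrix proteoglycan imprinted in placenta, had 1.62, 3.13 and 1.88 CPM in control and 4.60, 0.879 and 1.56 CPM in Dnmt1Δ/Δep libraries, which overlapped. The log2 fold change of Dcn was 0.07 (95% interval -1.31 to 1.45), and -0.86 without Dnmt1Δ/Δep replicate 1.

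**Figure D4:**
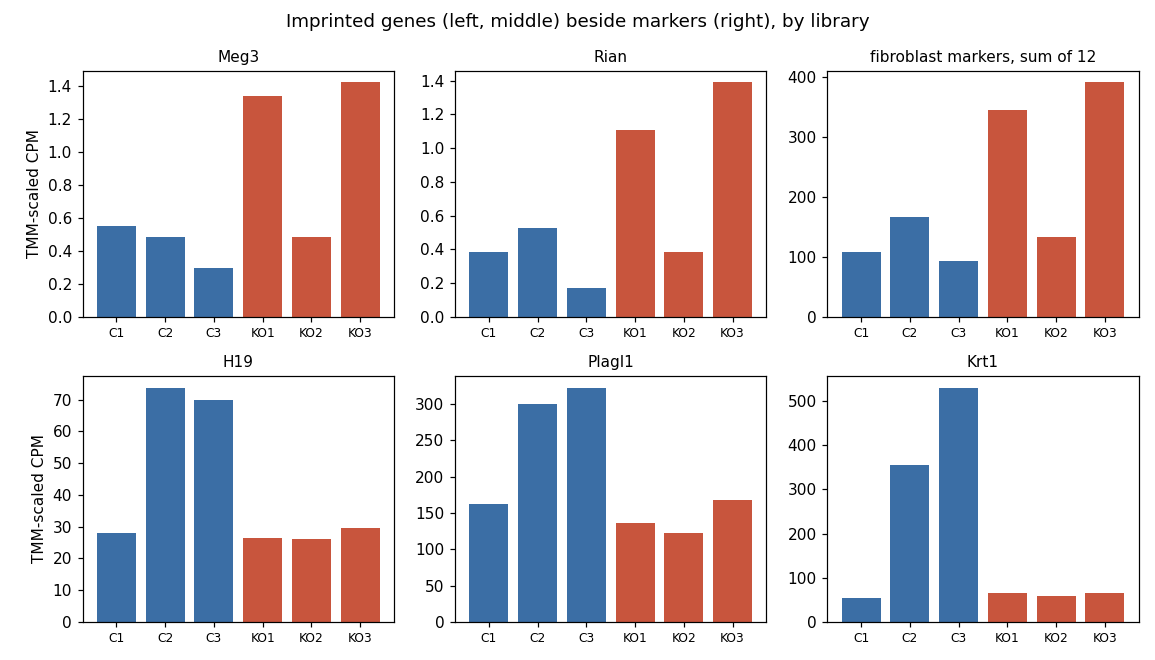
Levels by library of Meg3 and Rian beside the summed fibroblast markers (upper row), and of H19 and Plagl1 beside Krt1 (lower row), as TMM-scaled CPM on axes that start at 0. C1 to C3 are control and KO1 to KO3 Dnmt1Δ/Δep libraries. Upper row: KO1 and KO3 are the highest bars. Lower row: C2 and C3 are the highest bars.

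At the remaining clusters H13 was the 1 gene past the adjusted p, beside Peg3 and Sgce above. Igf2r had a log2 fold change of 0.30 (95% interval -0.08 to 0.68), and Airn, the paternally expressed antisense RNA that silences it, 0.54 (-0.03 to 1.12). In the Peg3 cluster Zim1, a maternally expressed zinc finger gene, had 1.16, 1.498 and 1.54 CPM in control and 0.587, 0.648 and 1.03 CPM in Dnmt1Δ/Δep libraries, without overlap. It did not pass, with an adjusted p of 0.13 by edgeR with Benjamini-Hochberg adjustment. Mcts2, a retrogene within H13, had 17.9, 14.5 and 16.5 CPM in control and 23.5, 19.7 and 18.8 CPM in Dnmt1Δ/Δep libraries, with no overlap and an adjusted p of 0.19 by the same edgeR test. Both genes of this locus had higher means, although they are read from opposite parental copies in the tissues where H13 is imprinted.

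Grb10, a growth factor receptor adaptor, was among the steadiest, at 0.09 (95% interval -0.17 to 0.36), and Ddc beside it had 0.06 (-1.15 to 1.27). Gnas had -0.20 (-0.62 to 0.22) and its antisense RNA Nespas 0.02 (-0.95 to 0.98), with 22.0% and 38.5% of their exon bases shared with other genes, and the sign of Nespas turned under other normalizations. Zrsr1, a splicing factor retrogene, had -0.22 (-0.61 to 0.17), and Impact, a regulator of translation, had 0.31 (-0.07 to 0.69).

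Inpp5f, an inositol phosphatase gene, had 25.7, 29.8 and 30.8 CPM in control and 33.1, 35.5 and 34.4 CPM in Dnmt1Δ/Δep libraries, with no overlap and a log2 fold change of 0.26 (95% interval 0.00 to 0.51). Mest, a hydrolase gene of mesoderm, had 0.28 (-0.26 to 0.83), with 23.1% of its exon bases shared with other genes. Nnat, a proteolipid gene of the developing brain, had 0.0951, 0.287 and 0.0745 CPM in control and 0.788, 0.185 and 0.136 CPM in Dnmt1Δ/Δep libraries, where 1 library was far above the rest. Rasgrf1, a Ras activator of neurons, had 2, 5 and 5 counts in control and 15, 16 and 26 counts in Dnmt1Δ/Δep libraries. Its log2 fold change of 2.06 ± 0.55 (SE) was the largest of the 39 and had an adjusted p of 0.062 by edgeR with Benjamini-Hochberg adjustment. Every control count was under the minimum count of 10, so Rasgrf1 was tested only through its Dnmt1Δ/Δep libraries. A positive value was therefore favoured by the filter.

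By parental copy, the 21 tested paternally expressed genes had a median log2 fold change of 0.28, with 1 gene higher and 2 lower on the adjusted p alone (7.71% and 1.66% of all tested genes), and the 17 maternally expressed genes a median of 0.15, with 2 higher and none lower. Each parental class held positive and negative values, and the difference between the classes was not tested. The order of the paternal and maternal medians was not firm. It turned without control replicate 2 (0.22 paternal, 0.27 maternal) and without Dnmt1Δ/Δep replicate 3 (0.24 paternal, 0.25 maternal). The 14 tested genes whose promoter lies at a germline control region had a median of -0.03, with none higher and 2 lower (Peg3 and Sgce). The sign of this median is not firm. It was 0.03 with the replicate block and 0.02 over 13 genes without H19, whose control region lies upstream of its promoter, a choice made after seeing the data. The 25 other genes had a median of 0.27, with 3 higher and none lower. The shares of all tested genes are the same 7.71% and 1.66%, and the difference between the 2 classes was not tested. The 12 genes whose imprinting is restricted to some tissues, such as placenta or brain, had a median of 0.07.

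Within clusters, oppositely imprinted neighbours were compared as the log2 ratio of their reads per kilobase in each library, in 5 pairs. The H19 to Igf2 ratio was 1.40, 2.45 and 2.47 in control and 1.09, 1.37 and 1.63 in Dnmt1Δ/Δep replicates 1, 2 and 3. The groups overlapped through control replicate 1, with a difference in means of -0.75 and a two-sided exact permutation p of 0.2, where 3 against 3 libraries cannot go below 0.1. Within each replicate number the ratio was lower in the Dnmt1Δ/Δep library, in 3 of 3 pairs, and the exact paired sign-flip p was 0.25, the smallest that 3 pairs allow. The strand setting of the counting is not known, so reads of Airn and Igf2r, which overlap on opposite strands, may be mixed, as may those of Kcnq1ot1 with Kcnq1 and Nespas with Gnas. The differences were 0.19 for Airn to Igf2r (0.025 without Dnmt1Δ/Δep replicate 3 and 0.42 without replicate 2), 0.11 for Meg3 to Dlk1 (0.43 with a pseudocount of 3 in place of 0.5), -0.15 for Zim1 to Peg3 and -0.55 for Kcnq1ot1 to Cdkn1c. Leaving out 1 library turned the sign for Meg3 to Dlk1, with a range of -0.29 to 0.68. It also turned that of Zim1 to Peg3 (0.11 without Dnmt1Δ/Δep replicate 1) and of Kcnq1ot1 to Cdkn1c (0.053 without Dnmt1Δ/Δep replicate 2). Groups overlapped in every pair, and the exact permutation p adjusted over the 5 pairs lay between 0.875 and 0.9.

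A separate list of 42 other imprinted genes held 38 in the count table, of which 25 were tested. The median log2 fold change was 0.20, and 4 of the 25 were called up and none down, beside 6.03% and 0.392% of all tested genes. Gatm, a creatine synthesis enzyme gene, had 0.687, 0.451 and 0.205 CPM in control and 3.83, 4.93 and 6.46 CPM in Dnmt1Δ/Δep libraries, the largest change of the list (log2 fold change 3.46, adjusted p 0.0039 by edgeR with Benjamini-Hochberg adjustment). Tnfrsf23, a decoy receptor gene at the end of the Kcnq1 cluster, rose from 40.2, 23.5 and 32.5 CPM to 108, 91.2 and 71.6 CPM. Atp10a, a lipid flippase gene beside Ube3a, rose from 6.66, 6.41 and 6.61 CPM to 14.8, 15.3 and 14.3 CPM, and Sfmbt2, a Polycomb protein gene, from 1.62, 1.08 and 1.08 CPM to 2.40, 3.39 and 2.37 CPM. Sfmbt2 had an adjusted p of 0.047 by edgeR and kept its call in 1 of the 6 fits that left out 1 library (adjusted p up to 0.17), while the other 3 kept theirs in all 6.

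None of these 4 overlapped between the groups. With the replicate number as a block, 7 of the 25 were called, beside 6.97% of all tested genes up and 0.565% down. The largest negative value was that of Begain, a synaptic protein gene at the Dlk1-Meg3 cluster, at -0.89 with an adjusted p of 0.26 by edgeR with Benjamini-Hochberg adjustment. Within 250 kb of the clusters of the 42 genes lay 119 protein-coding genes in neither imprinted list. Of the 119, 66 were tested, with a median log2 fold change of -0.05. Of these 4 were called up and none down, a share close to the 6.03% of all tested genes. They were Tnfrsf26, at 0.846, 0.205 and 0.298 CPM in control and 20.2, 17.3 and 19.6 CPM in Dnmt1Δ/Δep libraries, Rgs10, Pnldc1 and Unc93a, named after their values were seen. With 1 library left out, Tnfrsf26 and Rgs10 kept their calls in all 6 fits, Pnldc1 in 3 (adjusted p by edgeR up to 0.088) and Unc93a in 2 (up to 0.067). Unc93a had 0 counts in every control library, so it was tested only through its Dnmt1Δ/Δep libraries, which favoured a positive value.

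Of the factors that keep imprints, Dnmt1 alone was called by edgeR with all libraries and no block, and Zfp57 and Dnmt3l were each called under some alternatives. Zfp57, whose protein binds methylated control regions, had 3.73, 1.31 and 1.25 CPM in control and 3.17, 3.62 and 2.53 CPM in Dnmt1Δ/Δep libraries, with overlap through control replicate 1. Its log2 fold change was 0.56 with an adjusted p of 0.53 by edgeR, and 1.27 with an adjusted p of 0.019 without control replicate 1, where it was called. Zfp445, which acts beside it, had a log2 fold change of 0.04, Trim28, their shared corepressor, -0.13 and Ctcf, the insulator protein, -0.25, with adjusted p of 0.94, 0.62 and 0.12 by edgeR with Benjamini-Hochberg adjustment. The largest positive value was that of Dnmt3l, a cofactor of the de novo methyltransferases, at 1.59 with an adjusted p of 0.073 by the same edgeR test. It was called in 1 of the 6 fits that left out a library, with the replicate block (1.66, adjusted p 0.048 by edgeR) and by DESeq2 (1.56, adjusted p 0.016), at 0.116 to 0.359 CPM in control and 0.755 to 0.949 CPM in Dnmt1Δ/Δep libraries.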

How the data were processed

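Poly(A) RNA of 3 control and 3 Dnmt1Δ/Δep keratinocyte cultures was sequenced. After trimming adapters and discarding ribosomal reads, the authors aligned with STAR and counted reads per gene with HTSeq, and the deposited values are raw counts; the strand setting is not given in the sources used here. Entries that name no gene (8.73% to 12.9% of reads) were left out. Deposited tables of the authors' comparisons (fold changes, p-values) and the repeat table were not used, nor were 18 other columns with values per sample.

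Groups came from the labels. The members and lists were chosen with earlier results of these data known, and all 42 members are named. Of the other imprinted genes and imprint factors, those called, the largest change in each direction, Zfp57, Zfp445, Trim28, Ctcf and Dnmt1 were named.

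Counts were tested with edgeR 4.0.16 (R 4.3.3; quasi-likelihood test, TMM, filterByExpr with minimum counts of 10 and 15, no block), with Benjamini-Hochberg adjustment over 16829 genes and calls at 0.05 (adjusted p) and 1 (size of the log2 fold change). The method was tested on simulated data. Alternatives were DESeq2 1.42.0, its size factors in edgeR, no filter, a replicate block and leaving out each library. Positions and exon lengths are from GENCODE M21 on GRCm38, and 42462 of 43629 identifiers had a symbol. The ratios of paired genes used a pseudocount of 0.5. Depth, 53433121 to 115526598 reads on genes, limits genes near 3 counts, which covers counting error only. Each library is 1 mouse by the labels. Replicates of a number share a flow-cell lane in the table's headers, and their deviations from the group means correlated (0.431, 0.279 and 0.300), so the numbers pair the libraries.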

Additional observations from a re-analysis of the deposited data

How the results depend on the processing

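The count of all genes called up was 1014 and ranged from 559 to 1183 when 1 library was left out. The count called down was 66, and 107 without the filter, 116 with DESeq2 and 15 to 180 with 1 library left out. Imprinted genes called up numbered 0, 1 with DESeq2 and 0 to 1 with a library left out; called down they numbered 0, 1 with DESeq2 size factors, 2 without the filter, 2 with DESeq2 and 0 to 2 with a library left out. On the adjusted p alone, 5 passed, 8 with DESeq2 and 0 to 9 with a library left out. The other imprinted genes called ranged from 3 to 7. Medians ranged from 0.11 to 0.37 for all imprinted genes, 0.15 to 0.41 for the paternally expressed and 0.11 to 0.27 for the maternally expressed. Ratios within pairs ranged from 0.025 to 0.42 for Airn to Igf2r, -0.29 to 0.68 for Meg3 to Dlk1, -0.94 to 0.053 for Kcnq1ot1 to Cdkn1c and -0.36 to 0.11 for Zim1 to Peg3. The cause was not tested.

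No imprinted gene was called by edgeR with all libraries and no block, so signs could turn only for uncalled genes. Tssc4 was at -0.0055 with DESeq2 size factors, -0.0061 with DESeq2 and -0.013 without the filter, and Nespas at -0.015, -0.015 and -0.020 in the same order. With 1 library left out, log2 fold changes ranged from -0.46 to 0.39 for Peg10, -0.23 to 0.030 for Snrpn, -0.038 to 0.37 for Ube3a, -0.28 to 0.73 for Ddc, -0.079 to 0.083 for Tssc4, -0.16 to 0.10 for Nap1l4, -0.27 to 0.53 for Nespas and -0.86 to 0.41 for Dcn.

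With the replicate number as a block (the pairing by lane), 7 of the other imprinted genes were called in place of 4, and Dcn was at -0.18. The block changed no call of the 42 imprinted genes. Pairing the ratios of neighbours by exact sign flips, an alternative chosen after seeing the data, gave the same differences (-0.75 for H19 to Igf2). The sets have 3 libraries per group and no reads by parental copy, so a gain of the silent copy with an equal loss of the active one would not be seen. For each tested gene under 0.1 RPKM in control the interval reached past a log2 fold change of 1.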
